A study of Equus caballus with 31 samples.

Results

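Proteases that cut cartilage and joint matrix are held in check by secreted and membrane-bound inhibitors, and 7 genes coding for such inhibitors were followed here in cells from the joint fluid and the blood of horses with and without osteoarthritis (OA). They were chosen by gene symbol: TIMP1, TIMP2, TIMP3, RECK, SERPINB1, CST3 and A2M. All 7 are among the 17538 genes listed for joint fluid cells and among the 17410 listed for peripheral blood mononuclear cells (PBMC). The groups were 5 OA and 11 healthy synovial fluid cell pellets, and 6 OA and 9 healthy PBMC samples. The OA was naturally occurring. Lameness examination, radiographs and, in OA joints, the response to a local anaesthetic set the diagnosis, and horses recently given drugs or joint injections were left out. All horses carry the genotype label WT; age, sex and joint are not given in the labels used here. Both kinds of sample are labelled as mixed mononuclear cells, and fluid was treated with hyaluronidase before the cells were spun down. Library names give the horse (OA_1038, ORC_188), and 13 horses, 5 with OA and 8 healthy, gave both fluid and blood. Each replicate is therefore a separate horse.

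The tissue inhibitors of metalloproteinases (TIMPs) are secreted proteins that plug the catalytic site of matrix metalloproteinases (MMPs). TIMP3 also blocks the shedding protease ADAM17 and the aggrecan-cleaving ADAMTS4 and ADAMTS5, and RECK is a membrane-anchored inhibitor of several metalloproteinases. The other 3 act elsewhere: SERPINB1 traps neutrophil serine proteases inside and around leukocytes, CST3 (cystatin C) blocks cysteine cathepsins, and A2M (alpha-2-macroglobulin) cages proteases of all classes for uptake through the receptor LRP1. In the joint, an excess of metalloproteinase activity over TIMPs is a textbook feature of cartilage loss.

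Libraries held 25.9 to 35.4 M reads (M for mega) in OA fluid, 26.5 to 36.3 M in healthy fluid, 31.7 to 34.8 M in OA PBMC and 23.9 to 32.2 M in healthy PBMC. Values are read counts that the authors scaled between libraries, called normalized counts below. The tables of the 2 tissues were scaled separately and are not divided by gene length, so levels are not compared between tissues or between genes. All 9 cell type marker lists, T cell and monocyte genes among them, had reads in every fluid and PBMC library. The fluid pellets differed in other cells: the mean log2 level of 18 synovial fibroblast and lining genes spanned 5.36 to 12.63 in OA fluids and 5.09 to 10.06 in healthy fluids. OA_9570 stood apart among OA fluids at 5.36, against 10.83 to 12.63 in the other 4. In bulk samples, fewer cells of a type and less RNA per cell cannot be told apart.

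In the coordinates of EquCab3.0 that the authors' table gives, TIMP1 lies on chromosome X:40033705-40036521, overlapped by the listed spans of PRPS2 and SYN1. TIMP2 lies on 11:3811598-3858412, TIMP3 on 28:32034450-32089053, SERPINB1 on 20:3551446-3592178 and CST3 on 22:1921603-1925985, with no other listed gene overlapping them. RECK, on 25:1324239-1420548, and A2M, on 6:37142927-37263084, each overlap 1 gene that has an identifier only. The sources used here do not say whether reads were counted by strand, so reads of TIMP1, RECK and A2M cannot be told apart from those of the genes they overlap.

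In fluid cells TIMP1 and TIMP2 were higher in OA, and none of the 7 genes was called lower. Fold changes are given on the scale of log2(normalized count + 1), and a call means an adjusted p below 0.05 from limma with Benjamini-Hochberg adjustment over all 13885 genes with a mean of at least 10. By that rule 2 of 7 members were called higher, when 14.4% of all genes tested were called higher and 13.6% lower. Of all fluid calls 51.4% were higher with the authors' scaling, 32.2% with libraries rescaled to equal totals and 44.0% with TMM factors, and TIMP1 and TIMP2 were called under all 3. An unadjusted p below 0.05 was reached by 4 of 7 members and by 41.7% of all genes. All 7 estimates were above 0, as were 53.8% of those of all genes. The median of the 7 log2 changes was 0.73, beside 0.08 for all genes tested.

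TIMP1, which binds secreted MMPs and ADAM10, was read at 6133 normalized counts in OA_1038, 10217 in OA_2615, 19396 in OA_3850, 20104 in OA_9350 and 11257 in OA_9570. The 11 healthy fluids ran from 589.9 through a median of 3290.4 to 6717. Only ORC_202 among the healthy fluids exceeded the lowest OA fluid, so 4 of 5 OA fluids lay above every healthy one. None of the 7 members had groups without overlap, as had 1.57% of all genes tested with OA above and 1.99% with OA below. Means were 13421 ± 6091 in OA fluid and 3355 ± 1635 in healthy fluid (SD, n = 5 and 11). The log2 change was 2.08 (SE 0.43, 95% interval 1.17 to 2.99; limma adjusted p = 0.00332). It stayed past the threshold when any 1 of the 16 fluids was left out, with adjusted p between 0.00121 and 0.0131.

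TIMP2, which inhibits MMPs and also takes part in activating MMP2 on the cell surface with MMP14, was read at 4265 normalized counts in OA_1038, 11166 in OA_2615, 7185 in OA_3850, 7806 in OA_9350 and 7724 in OA_9570. Healthy fluids ran from 1649 through a median of 2723 to 8528. Every OA fluid lay above the healthy median, but 4 healthy fluids exceeded the lowest OA fluid. The log2 change of 1.17 (SE 0.38, 95% interval 0.38 to 1.96) passed with limma at an adjusted p of 0.0281 and with DESeq2 at 0.0299, but not with edgeR at 0.0594. Without OA_2615, OA_3850 or OA_9350 the limma adjusted p was 0.086, 0.0555 and 0.0594, each time with TIMP1 alone called.

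TIMP3, which stays bound to the extracellular matrix, was split within both groups. It was read at 4147 normalized counts in OA_1038, 8014 in OA_2615, 7043 in OA_3850 and 9910 in OA_9350, but at 69.5 in OA_9570. Healthy fluids ran from 64.9 through a median of 567.0 to 4097. The first 4 OA fluids lay above every healthy fluid, and OA_9570 lay beside the lowest healthy ones. The log2 change of 2.76 (SE 1.18, 95% interval 0.26 to 5.26) missed the threshold with limma (adjusted p = 0.0883), and passed with edgeR (adjusted p = 0.0447) and DESeq2 (adjusted p = 0.0207). Without OA_9570 it was 4.08 with a limma adjusted p of 0.00583.

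RECK was read at 476.8 normalized counts in OA_1038, 1042 in OA_2615, 543.2 in OA_3850, 781.7 in OA_9350 and 328.7 in OA_9570. Healthy fluids ran from 217.1 through a median of 325.6 to 633.3. The groups overlapped, with 5 healthy fluids above the lowest OA fluid. The log2 change was 0.73 (SE 0.29, limma adjusted p = 0.0699, edgeR 0.0699, DESeq2 0.0489). It passed with limma without OA_9570 (0.94, adjusted p = 0.0235), ORC_202 (0.81, adjusted p = 0.0411) or ORC_205 (0.82, adjusted p = 0.0401).

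The inhibitors of the other protease classes did not pass in fluid. SERPINB1 was read at 4949, 10335, 8096, 7432 and 12908 normalized counts in OA_1038, OA_2615, OA_3850, OA_9350 and OA_9570, against 3637 to 9502 in healthy fluids with a median of 6885. The groups overlapped, and the log2 change was 0.47 (SE 0.26, limma adjusted p = 0.177). CST3 was read at 210333, 343437, 157534, 464834 and 340173 normalized counts in the same order of OA fluids, against 44972 to 626061 in healthy fluids with a median of 276500. Its range in OA lay wholly inside its range in healthy fluid, with a change of 0.18 on the log2 scale (SE 0.47, 95% interval -0.80 to 1.16; limma adjusted p = 0.791).

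A2M varied widely among OA fluids. It was read at 195.9 normalized counts in OA_1038, 349.3 in OA_2615, 103.8 in OA_3850 and 22.5 in OA_9570. In OA_9350 it was at 0, where a count of 0 allows up to 3.7 normalized counts (3 reads, for counting error only). Healthy fluids ran from 2.42 through a median of 35.1 to 75.1. The first 3 lay above every healthy fluid, and OA_9350 at 0 cannot be told apart from the lowest healthy fluid. The log2 change was 0.59 (SE 1.06, limma adjusted p = 0.695). By the count models it was 1.82 (edgeR, 0.104 after adjustment) and 1.90 (DESeq2, 0.0583 after adjustment), also short of the threshold. Without OA_2615 it was -0.15 and without OA_9350 it was 1.96, with limma adjusted p of 0.937 and 0.0823.

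**Figure D1:**
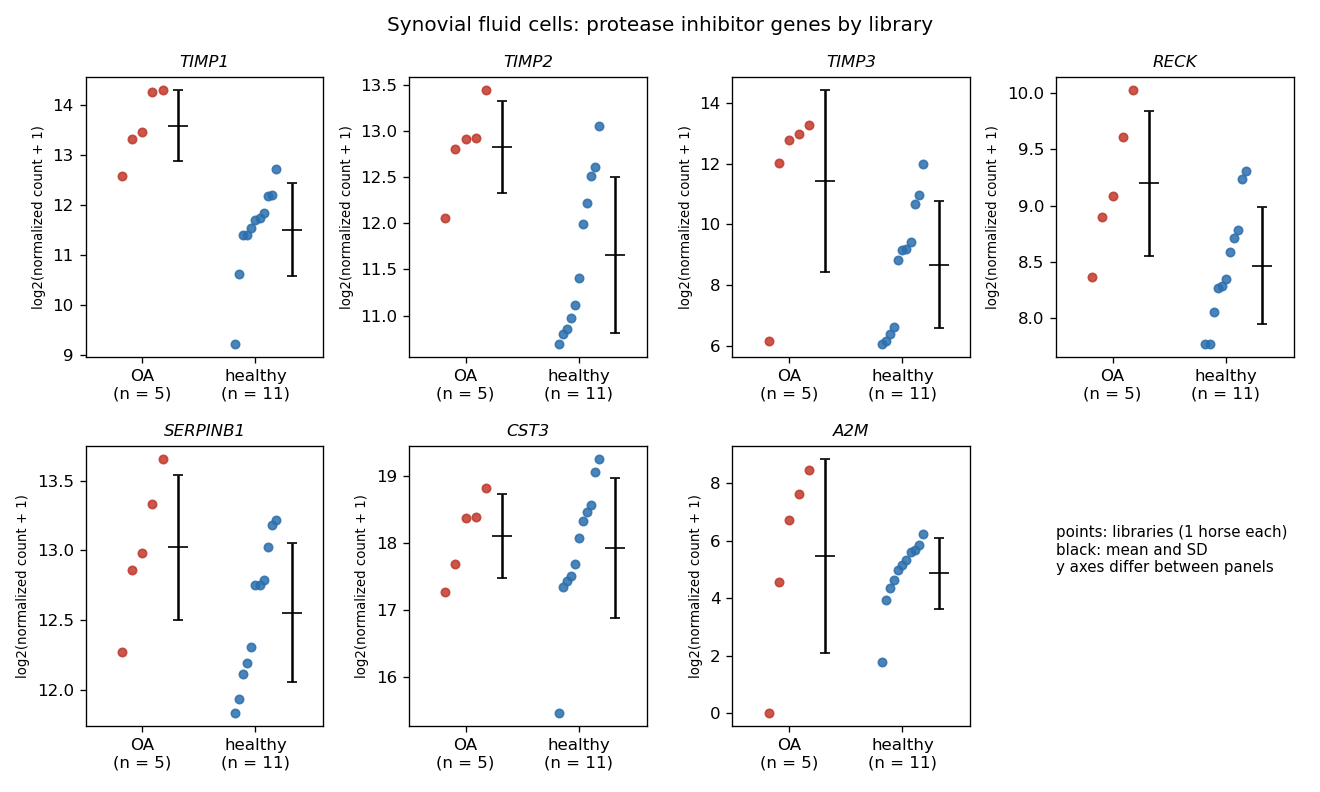
Levels of the 7 inhibitor genes in synovial fluid cells, as log2(normalized count + 1) on the y axis, with 5 OA libraries left and 11 healthy libraries right in each panel; points are libraries and black lines are mean and SD. TIMP1 separates all but 1 healthy library from the OA libraries, and the low OA point of TIMP3 is OA_9570 at 69.5 normalized counts.

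Marker genes of several cell types moved with these values. T cell genes were lower in OA fluid: 14 of 15 were called lower, their list mean was 8.83 to 10.97 in OA fluids and 10.96 to 12.67 in healthy fluids, and their summed level was 9034 to 39670 normalized counts in OA fluids and 39710 to 143700 in healthy fluids. Of 18 fibroblast and lining genes, 5 were called higher by limma, 11 by edgeR and 13 by DESeq2, with sums of 2346 to 733900 in OA fluids and 2680 to 152300 in healthy fluids. Of 7 monocyte genes 2 were called higher, with sums of 25130 to 161100 in OA fluids and 14660 to 118600 in healthy fluids. Of 8 tissue-resident macrophage genes none was called, with 2 called higher by DESeq2 and none by edgeR, and sums of 38590 to 460200 in OA fluids and 8532 to 506700 in healthy fluids. Of 6 tested chondrocyte genes ACAN, COMP and HAPLN1 were called higher, with a list median of 2.29. The other genes went both ways and were not called: SOX9 at 2.84 (limma adjusted p = 0.132), COL2A1 at -1.37 (0.129) and CHAD at -1.44 (0.189). The chondrocyte list mean was 3.40 in OA_9570 and 5.91 to 7.78 in the other OA fluids, against 2.99 to 5.51 in healthy fluids. No listed gene of these types was at 0 in every fluid. No member was called once the T cell list was added to the fit: TIMP1 had a log2 change of 1.31 (limma adjusted p = 0.486) and TIMP2 of -0.35 (0.82). The 2 groups' T cell list means barely overlap, so disease and T cell RNA share largely cannot be told apart here. With the fibroblast list mean as a covariate, TIMP1 kept a log2 change of 1.86 (limma adjusted p = 0.0417), TIMP2 had 0.55 (0.382) and TIMP3 had -0.56 (0.468).

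TIMP3 and TIMP2 also followed marker levels among the healthy fluids alone, a comparison added after the members' values were seen. The 4 healthy fluids with the lowest fibroblast list means (5.09 to 5.94) had TIMP3 at 64.9 to 97.3 normalized counts, and the other 7 (6.22 to 10.06) had 457.6 to 4097. The list means have no wide gap at this cut, which follows the step in TIMP3, so the separation of the 2 sets is no test. The correlations below use no cut. OA_9570, with a fibroblast list mean of 5.36, fell among the first set with its 69.5 normalized counts of TIMP3. For TIMP2, the 6 healthy fluids with macrophage list means of 8.84 to 11.21 had 1649 to 2723 normalized counts, and the 5 with means of 12.44 to 13.84 had 4088 to 8528. Each gene moved with the other list too: TIMP3 was at 64.9 to 567.0 normalized counts in the 6 fluids of lower and at 583.0 to 4097 in the 5 of higher macrophage list means, and TIMP2 was at 1649 to 2723 in the 4 fluids of lowest fibroblast list means and at 1850 to 8528 in the other 7. With the fibroblast list Pearson's r was 0.94 for TIMP3 (permutation p = 0.00005, adjusted over 28 relations 0.0014; rho 0.955, adjusted permutation p = 0.00112) and 0.912 without the 2 fluids farthest from the median of the list mean. For TIMP2 it was 0.846 (permutation p = 0.00218, adjusted 0.0153; rho 0.818, adjusted permutation p = 0.0216) and 0.716 without the 2 farthest. The macrophage list means fall into separate ranges, so a correlation over all 11 also holds the step between them. With that list r was 0.90 for TIMP2 (permutation p = 0.00018, adjusted 0.00205) and 0.89 for TIMP3 (permutation p = 0.00022, adjusted 0.00205). Without the 2 farthest fluids r was 0.925 and 0.862. Among the relations of the other 5 genes to 4 marker lists, TIMP1 and CST3 passed with the monocyte list and A2M with the macrophage list. Pearson's r was 0.784 for TIMP1 (permutation p = 0.0042, adjusted 0.0235; Spearman's rho 0.664, permutation p = 0.0301, adjusted 0.0954) and 0.769 for CST3 (permutation p = 0.00618, adjusted 0.0288; rho 0.555, permutation p = 0.0819, adjusted 0.153). Without the 2 fluids farthest from the median of the list mean these were 0.348 and 0.333, so both rest on those fluids. For A2M r was 0.735 (permutation p = 0.00909, adjusted 0.0364; rho 0.664, permutation p = 0.0307, adjusted 0.0954), and 0.526 without the 2 farthest. None of these 3 passed by rho.

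**Figure D2:**
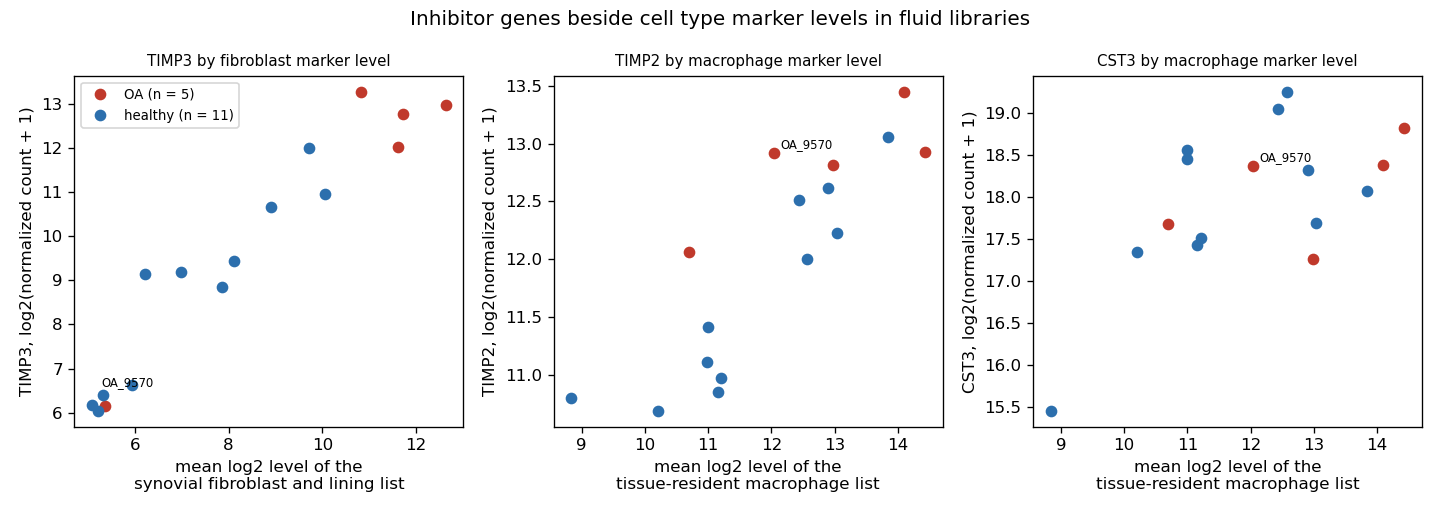
Level of TIMP3, TIMP2 and CST3 in fluid libraries, as log2(normalized count + 1) on the y axis, against the mean log2 level of a marker list on the x axis; red points are 5 OA and blue points 11 healthy libraries. OA_9570 lies with the 4 healthy fluids of lowest fibroblast list mean in the TIMP3 panel, while in the TIMP2 panel it has 7724 normalized counts at a macrophage list mean of 12.04.

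In PBMC no member was called by limma or by edgeR, and DESeq2 called TIMP2 and SERPINB1 higher. TIMP3 was below the filter on low genes, leaving 6 members among 13072 genes tested, of which 3.2% were called higher and 2.2% lower, 5.4% in all. An unadjusted p below 0.05 was reached by 4 of the 6, and by 25.0% of all genes tested. All 6 estimates were above 0, as were 52.0% of those of all genes. Their median was 0.50 beside 0.02 for all genes tested. The filter shaped these counts: TIMP3, left out by it, had a log2 change of -0.42 without a filter (limma adjusted p = 0.72). A2M, whose unadjusted limma p was 0.0449, passed the filter through its OA samples (mean 17.4, against 6.64 in healthy PBMC). The groups overlapped for all 6, when 0.612% of all genes had every OA sample above and 0.436% every OA sample below the healthy ones.

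TIMP2 ran from 3131 through a median of 4058 to 6674 normalized counts in the 6 OA PBMC samples, against 1016 through 2575 to 4252 in the 9 healthy ones. All 6 OA samples lay above the healthy median, and 2 healthy samples exceeded the lowest OA sample. The log2 change was 0.76 (SE 0.25, 95% interval 0.23 to 1.30), with adjusted p of 0.0789 by limma, 0.0734 by edgeR and 0.0281 by DESeq2. Without healthy ORC_197 the limma adjusted p was 0.0499.

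SERPINB1 ran from 5202 through 7960 to 9898 normalized counts in OA PBMC, against 4600 through 5589 to 8538 in healthy PBMC. Of the 6 OA samples 5 lay above the healthy median, and OA_1038 was the lowest. The log2 change was 0.46 (SE 0.15, 95% interval 0.15 to 0.78), with adjusted p of 0.0688 by limma, 0.0655 by edgeR and 0.0274 by DESeq2. Without OA_1038 the limma adjusted p was 0.0184, and without ORC_197, the highest healthy sample, it was 0.0267.

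TIMP1, RECK and CST3 did not pass in PBMC. TIMP1 averaged 1822 ± 471 normalized counts in OA PBMC and 1436 ± 532 in healthy PBMC (SD, n = 6 and 9), on the log2 scale a change of 0.41 (SE 0.27; adjusted p = 0.352 by limma). RECK averaged 488.0 ± 96.0 in OA PBMC and 351.7 ± 89.4 in healthy PBMC, on the log2 scale a change of 0.50 (SE 0.19; adjusted p = 0.117 by limma). CST3 averaged 87576 ± 31885 in OA PBMC and 62123 ± 23509 in healthy PBMC, on the log2 scale a change of 0.51 (SE 0.28; adjusted p = 0.258 by limma). In each of the 3 the groups overlapped.

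A2M and TIMP3 were low in blood. A2M ran from 4.23 to 34.7 normalized counts in OA PBMC and from 0 to 14.5 in healthy PBMC, where ORC_192, ORC_197 and ORC_200 were at 0. A2M had 5 to 41 reads in OA PBMC and 0 to 15 reads in healthy PBMC, and TIMP3 3 to 12 and 0 to 21 reads. For the 3 libraries without an A2M read a count of 0 allows up to 3.09, 3.12 and 3.36 normalized counts. The log2 change of A2M, 1.68 (SE 0.78, limma adjusted p = 0.188), depends on the constant added before the logarithm, and was 0.70 with a constant of 10. TIMP3 was read at 2.54 to 11.3 normalized counts in OA PBMC and at 0 to 23.5 in healthy PBMC, and was not tested with the filter.

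**Figure D3:**
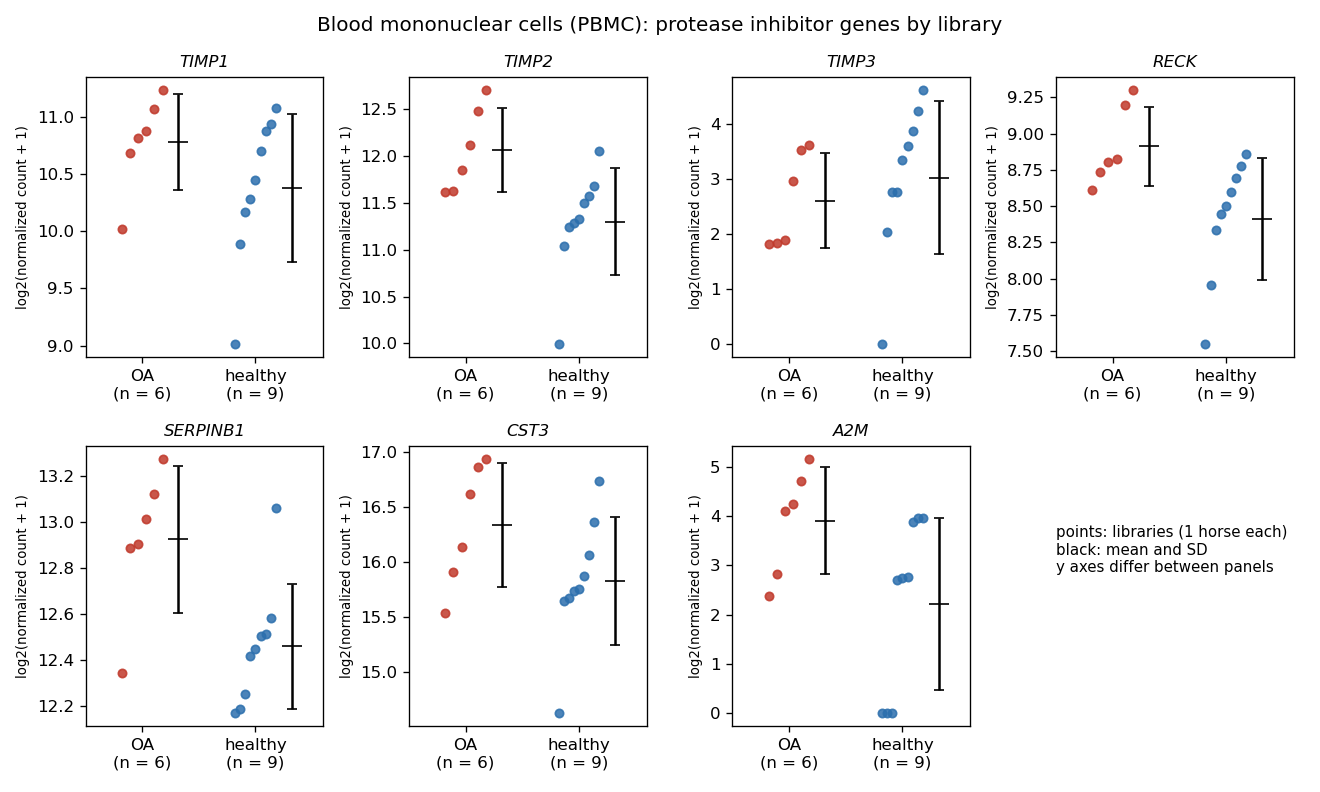
Levels of the 7 inhibitor genes in PBMC, as log2(normalized count + 1) on the y axis, with 6 OA libraries left and 9 healthy libraries right in each panel; points are libraries and black lines are mean and SD. The 2 groups overlap in every panel, and TIMP3 and A2M are close to 0 in several libraries.

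Marker lists also differed in blood. Of 7 listed monocyte genes 3 were called higher in OA PBMC, and their summed level was 89960 to 243600 normalized counts in OA PBMC and 42770 to 116400 in healthy PBMC. Their list mean was 11.84 to 13.54 in OA PBMC and 10.59 to 12.11 in healthy PBMC. No listed T cell gene was called by limma or edgeR, and DESeq2 called 1 lower; the T cell list mean was 11.45 to 12.48 in OA PBMC and 11.64 to 12.32 in healthy PBMC. Of 5 neutrophil genes S100A12 was called higher (1.40, limma adjusted p = 0.0438), with a list median of 1.22 and list means of 10.13 to 12.11 in OA PBMC and 8.41 to 11.51 in healthy PBMC. Of 6 tested macrophage genes MERTK was called higher (1.13, limma adjusted p = 0.0331), and of 8 B cell genes BLK was called lower (-1.09, limma adjusted p = 0.0409), with list medians of 1.16 and -0.65. The part of monocyte, neutrophil, macrophage or B cell RNA in the members' blood values was not tested.

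The OA effect on TIMP1 was larger in fluid than in PBMC, the only 1 of 6 members for which the difference between tissues passed. Of 12733 genes tested for that difference, 10.3% were called higher in fluid and 11.9% lower. For TIMP1 the fluid effect exceeded the PBMC effect by 1.67 on the log2 scale (SE 0.54, 95% interval 0.58 to 2.77; limma adjusted p = 0.0257). Using only the 13 horses with both samples, as within-horse differences in a fit with the horse as a block, it was 1.33 (SE 0.38, limma adjusted p = 0.0197). Without horse OA_3850 or OA_9350 the adjusted p was 0.0757 and 0.0836, with differences of 1.51 and 1.47. Relative to the healthy mean of the same tissue, TIMP1 lay 2.74 higher in fluid and 0.44 higher in PBMC of horse OA_3850 on the log2 scale, and 2.80 and 0.31 higher in horse OA_9350.

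For the other members the difference between tissues was not resolved. It was 0.41 for TIMP2 (95% interval -0.58 to 1.40), 0.23 for RECK (-0.51 to 0.97), 0.00 for SERPINB1 (-0.61 to 0.62), -0.32 for CST3 (-1.47 to 0.82) and -1.09 for A2M (-3.95 to 1.77), with limma adjusted p between 0.579 and 0.993. The intervals of TIMP2 and CST3 each span more than 1.5 on the log2 scale. None of the 5 was called with the horse as a block either, where the log2 differences of CST3 and A2M were -0.63 and -1.69.

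**Figure D4:**
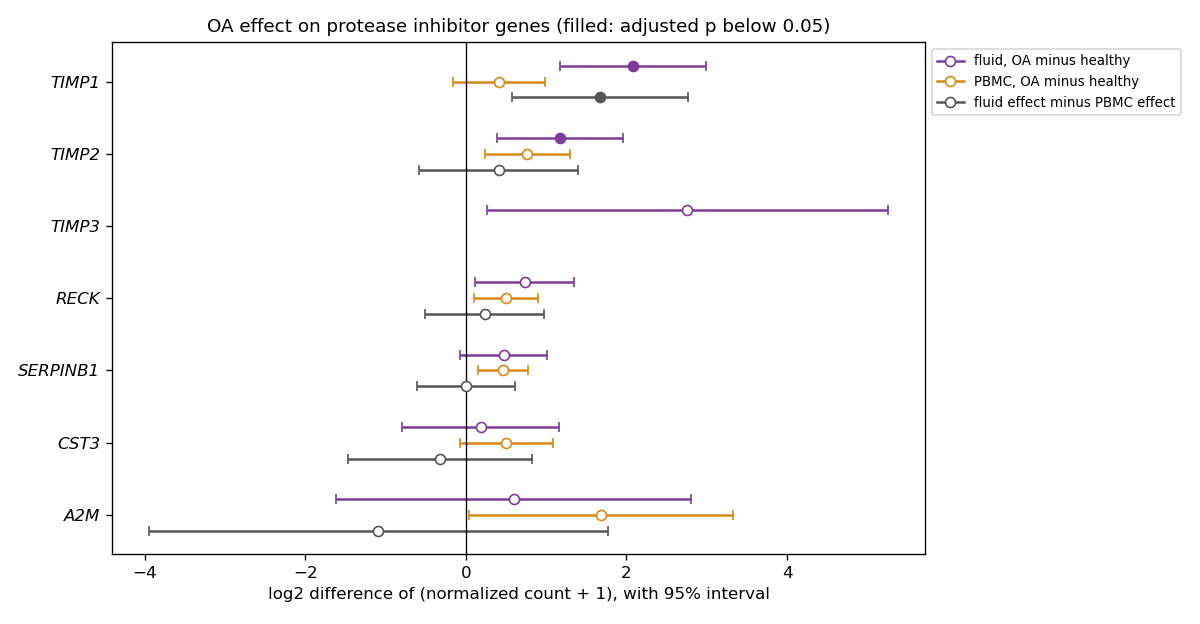
OA effect on each inhibitor gene on the x axis, as the log2 difference of (normalized count + 1) with its 95% interval: fluid OA minus healthy, PBMC OA minus healthy, and the first minus the second. Filled points have a limma adjusted p below 0.05, which TIMP1 and TIMP2 reach in fluid and TIMP1 reaches for the difference between tissues.

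Because scaling cancels within a library, each inhibitor was also set against a protease it is known to block, or for A2M its receptor, as a log2 difference. Of 20 such pairs, 14 could be tested in fluid and 8 in PBMC, and the p-values of an exact two-sided permutation test were adjusted over the 22. In fluid 1 of 14 pairs (7.14%) was called higher in OA and none lower, and in PBMC none of 8 was called, nor did any have an unadjusted p below 0.05. The pair called was TIMP1 against ADAM10, a membrane protease that sheds receptors and adhesion molecules. TIMP1 minus ADAM10 was 1.63, 1.52, 2.82, 2.84 and 2.03 in OA_1038, OA_2615, OA_3850, OA_9350 and OA_9570, against -1.99 to 1.51 in healthy fluids. The groups did not overlap, though the lowest OA fluid and the highest healthy fluid, ORC_202, lay next to each other. Means were 2.17 ± 0.63 in OA fluid and -0.04 ± 0.94 in healthy fluid (SD, n = 5 and 11), a difference of 2.21 (exact permutation p = 0.000229, the smallest the design can give; adjusted p = 0.00504). ADAM10 itself averaged 2771 ± 559 normalized counts in OA fluid and 3016 ± 482 in healthy fluid, a log2 change of -0.13 (limma adjusted p = 0.546). The pair therefore mostly restates the log2 change of TIMP1 alone, 2.08, and is not a separate result. In PBMC the same pair differed by 0.02 between OA and healthy samples (exact permutation p = 0.966, adjusted 0.992).

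None of the other fluid pairs passed with all fluids included. TIMP3 minus ADAM17 was higher by 3.02 in OA fluid (exact permutation p = 0.0302, adjusted 0.222) and RECK minus ADAM10 by 0.86 (exact permutation p = 0.0185, adjusted 0.204). TIMP2 minus MMP2, a gelatinase, was 0.97, 1.46, 1.48 and 2.77 in OA_1038, OA_2615, OA_3850 and OA_9350, against a mean of 6.36 ± 1.52 in healthy fluids (SD, n = 11), all 11 of which lay above these 4. MMP2 was at 0 in OA_9570, where the difference was at least 10.94 (against 3 reads of MMP2). With 1 added to each count, the OA and healthy means did not pass for this pair (exact permutation p = 0.153, adjusted 0.429). Without OA_9570 these 3 pairs passed, at 4.37 for TIMP3 minus ADAM17 (adjusted permutation p = 0.0107), 1.07 for RECK minus ADAM10 (0.0322) and -4.68 for TIMP2 minus MMP2 (0.00806). TIMP3 minus the aggrecanases ADAMTS4 and ADAMTS5 differed by -0.95 and -1.40, and CST3 minus the cathepsins CTSB, CTSK, CTSL and CTSS by -0.84, -0.86, -1.71 and -0.07. TIMP2 minus MMP14, RECK minus MMP14, TIMP1 minus MMP9 and A2M minus LRP1 differed by -1.18, -1.63, 0.45 and -1.70. Adjusted permutation p was 0.381 or above for these 10 pairs. ADAMTS4 was at 0 in 4 healthy fluids, ADAMTS5 in 1 and A2M in 1 OA fluid, so the differences of those 3 pairs depend on the added 1. SERPINB1 could not be set against neutrophil elastase in fluid, since ELANE was below the filter there, at 0 in every OA fluid.

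**Figure D5:**
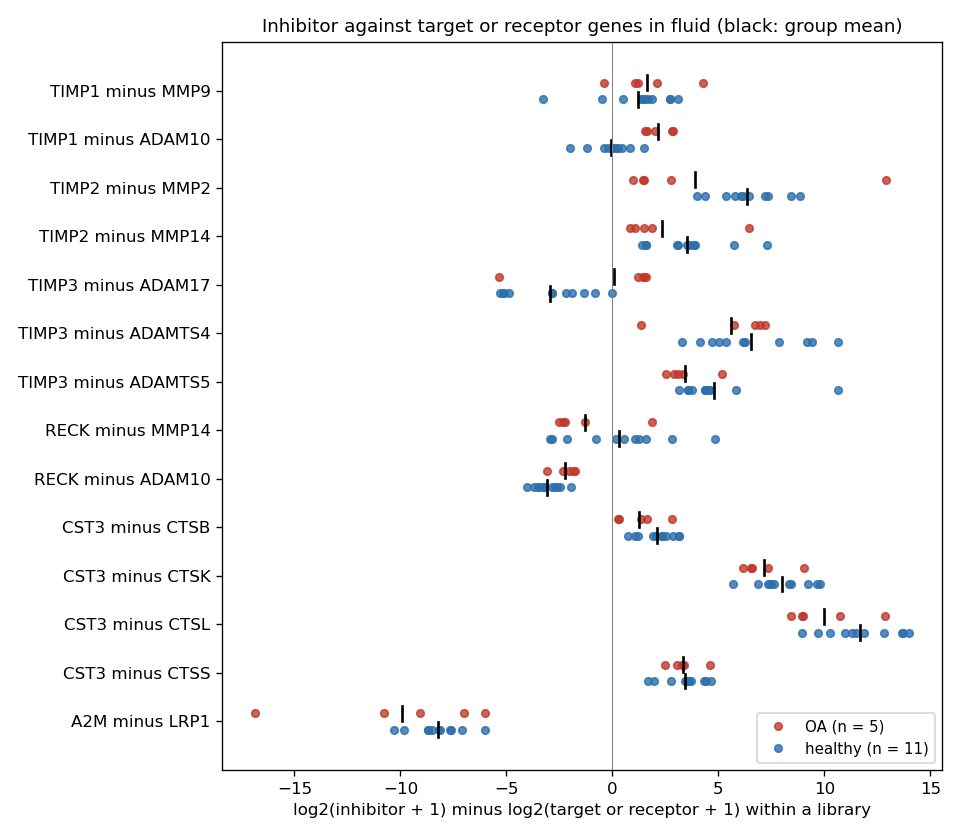
Inhibitor minus target or receptor, as the difference of log2(normalized count + 1) within a fluid library on the x axis, for 14 pairs; red points are 5 OA and blue points 11 healthy libraries, with group means as black bars. TIMP1 minus ADAM10 is the only pair without overlap (1.52 to 2.84 in OA, -1.99 to 1.51 in healthy), and in TIMP2 minus MMP2 the far OA point is OA_9570, where MMP2 was at 0 and the plotted value is set by the added 1 (at least 10.94 against 3 reads).

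Among the 11 healthy fluids, TIMP1, SERPINB1 and CST3 varied together. Of 21 pairs of members, 5 had an adjusted permutation p below 0.05 for Pearson's r. TIMP1 and SERPINB1 had r = 0.805 (permutation p = 0.00017, adjusted 0.00357) and Spearman's rho = 0.873 (permutation p = 0.00086, adjusted 0.0181), and r = 0.729 without the 2 fluids farthest from the median of TIMP1. TIMP1 and CST3 had r = 0.912 (permutation p = 0.00053, adjusted 0.00556) and rho = 0.755 (permutation p = 0.0095, adjusted 0.0499), and r = 0.73 without the 2 farthest. SERPINB1 and CST3 had r = 0.806 (permutation p = 0.00092, adjusted 0.00644) and rho = 0.818 (permutation p = 0.00353, adjusted 0.0274), and r = 0.748 without the 2 farthest. ORC_196 was lowest and ORC_202 highest in all 3 genes. The relation of TIMP1 with A2M, r = 0.828 (permutation p = 0.00818, adjusted 0.0344) and rho = 0.373 (permutation p = 0.261), rested on the 2 farthest fluids, without which r was 0.0786. TIMP2 and TIMP3 formed the remaining pair, with r = 0.811 (permutation p = 0.00449, adjusted 0.0236) and rho = 0.809 (permutation p = 0.00392, adjusted 0.0274), and r = 0.646 without the 2 farthest. The 4 fluids with the lowest TIMP3 had TIMP2 at 1649 to 2723 normalized counts, and the other 7 had 1850 to 8528, so the TIMP2 ranges overlap.

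The genes most like each member over all 16 fluids, by the Pearson correlation of deviations from the OA and healthy means among 11211 genes, differed from member to member. The libraries share their cell mixture, so these are descriptions only. TIMP3 was followed by the collagen genes COL4A2 (r = 0.976), COL6A2 (0.973) and COL6A1 (0.972). For TIMP2 the genes included LAMP1 (0.948), which codes for a lysosomal membrane protein, and PLAU (0.939), which codes for urokinase. CST3 was followed by KCNE3 (0.937), PCP4L1 (0.927) and SLAMF8 (0.923), and SERPINB1 by FUCA2 (0.929), UNC93B1 (0.916) and PYGL (0.911). TIMP1 was followed by KLHL23 (0.911), ARHGAP22 (0.894) and DNAJB11 (0.879), RECK by EXTL2 (0.832), PRKCA (0.822) and EFCAB14 (0.797), and A2M by ARMC1 (0.892), TYRO3 (0.861) and HRCT1 (0.843).

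Other inhibitors were called in fluid as well, where 14.4% of all 13885 genes tested were called higher and 13.6% lower. Whether these lists differ from that share was not tested. CD109, a membrane-anchored relative of A2M, was higher in OA fluid by 1.58 (limma adjusted p = 0.0109) and A2ML1, a secreted one, by 3.31 (0.0177). They were listed with TIMP4, which was not called (0.07, limma adjusted p = 0.965). Thus 2 of 3 tested in that list of TIMP and A2M relatives were higher, with a median of 1.58. Of 11 other serpins 3 were called higher and 2 lower, with a median of 0.34. SERPINB8 rose by 1.94 (limma adjusted p = 0.00964), while SERPINB6 fell by 1.15 (0.0192). Of 5 cystatins and related inhibitors 2 were higher and 1 lower, with a median of 1.35: LXN (latexin) rose by 2.87 and CSTA by 1.35, and CST7, the cystatin of cytotoxic lymphocytes, fell by 1.44. Of 6 Kunitz, Kazal and WAP inhibitors 2 were higher, with a median of 2.90: TFPI, which blocks the tissue factor pathway of clotting, rose by 3.67 (limma adjusted p = 0.0048) and WFDC1 by 4.60 (0.0136). WFDC1 averaged 4.56 normalized counts in healthy and 153.7 in OA fluid, and the uncalled TFPI2 4.43 and 24.9. Both passed the filter on low genes through their OA fluids, so the count and the median depend on it.

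Serine proteases and cathepsins held calls in both directions, and metalloproteases and clearance receptors only higher ones, by limma. Calls both ways were common among all genes tested in fluid, 14.4% higher and 13.6% lower. Of 19 metalloproteases 4 were higher and none lower in OA fluid, with a median of 1.78, among them ADAMTS4 (3.71, limma adjusted p = 0.0101), MMP19 (3.06, 0.0131) and ADAM9 (1.78, 0.018). Of 7 serine proteases 3 were lower, all granzymes of cytotoxic lymphocytes: GZMM fell by 2.56, GZMK by 1.32 and GZMA by 1.95, and 1, HTRA1, was higher. Of 11 cysteine cathepsins CTSW, another cytotoxic lymphocyte gene, fell by 2.34 (limma adjusted p = 0.00142) and CTSF rose by 1.58. Of 4 clearance receptors LRP1, which takes up A2M and serpin complexes, rose by 2.29 (limma adjusted p = 0.0237) and VLDLR by 2.67 (0.0378). Leaving out single fluids ended some of these calls. LRP1 was not called without OA_2615, OA_3850 or OA_9350, nor VLDLR without those, OA_1038, ORC_196 or ORC_201. The calls of A2ML1 without OA_3850, of LXN without OA_1038 and of CST7 and ADAM9 without OA_2615 were also lost. SERPINB6 was not called without OA_2615 or OA_9350, nor WFDC1 without OA_2615 or OA_3850. The calls of CSTA and CTSF were each lost in this way, without any of 11 and of 10 single fluids. By edgeR ADAMTS4, with a healthy mean of 8.87 normalized counts, and CTSF were not called (adjusted p = 0.0592 and 0.0565). ADAMTS4 passed the filter on low genes through its OA fluids, with a mean of 65.5. HTRA1 was not followed under other settings. None of the other genes named in these lists kept its call in fluid with the T cell list mean in the fit, and with the fibroblast list mean A2ML1 and CTSW alone kept theirs.

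In PBMC these lists held 5 calls, when 3.2% of all 13072 genes tested were called higher and 2.2% lower. LRP1 rose by 1.31 (limma adjusted p = 0.0331) and LRP8 by 0.78 (0.0317) among 4 receptors, ADAM9 by 0.80 (0.0299) among 11 metalloproteases and CTSB by 0.78 (0.0344) among 9 cathepsins, while SERPINB6 fell by 0.72 (0.0317) among 10 serpins. LRP1, ADAM9 and SERPINB6 were thus called in the same direction in both tissues, whose fluid and blood samples share 13 horses. Each of the 5 calls was lost without OA_3850, OA_9350, OA_9570 or ORC_207, at adjusted p of up to 0.104; ORC_208 did the same for all but LRP8, and OA_2615 for LRP8. All 5 were also lost with the T cell list mean in the fit. No gene of the A2M family, cystatin, Kunitz or serine protease lists was called in PBMC by limma or edgeR, and DESeq2 called 1 cystatin list gene and 1 serine protease higher.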

How the data were processed

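RNA of 16 fluid cell and 15 PBMC samples was enriched for poly(A) before sequencing, per the labels' protocols. The submitters' processing notes name Partek, cutadapt, STAR 2.7.3, HTSeq, DESeq and EquCab3.0. The deposited values are a normalized signal, one table per tissue: counts divided by a size factor per library. Whole reads were recovered for 99.92% of fluid and 99.94% of PBMC values within 0.1 reads, and totals of 23.9 to 36.3 M reads per library are sums of these. No per-sample column was left unused, and every sample was used.

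The main test was limma 3.58.1 (trend and robust, R 4.3.3) on log2(value + 1), OA against healthy within each tissue, two-sided, for genes with a table mean of at least 10, with Benjamini-Hochberg adjustment. edgeR 4.0.16 (quasi-likelihood) on recovered reads called 1947 genes higher and 2039 lower in fluid and 505 and 302 in PBMC. DESeq2 1.42.0 was also run. The difference between tissues was fitted over 4 group means with weights per tissue, and again with the horse as a replicate block. The names pair fluid and blood by horse. Deviations from the group means correlated in all 13 pairs (r 0.123 to 0.391). Fluid and blood of different horses were not set beside them, so these r do not test the pairing. Scripts were tested on simulated data. Intervals are 95% confidence intervals of a difference between group means, with horses as replicates, and are not ranges of single horses. Those of the difference between tissues come from the first fit, which takes fluid and blood of the same horse as independent.

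Alternatives were other pseudocounts, filters, scalings, tests, marker covariates and leaving out single libraries or horses. The members, gene lists and pairs were chosen with earlier results of these data known. Genes named are the members, up to 3 called genes of smallest adjusted p per list and tissue, the genes of the pairs, and the 3 genes most like each member; HTRA1 was named after its values were seen, as were the markers' relations to the members. MMP3, MMP8, PRTN3 and CTSH had no row under those symbols in the values used here, so their pairs were not tested. Some genes that meet the rule for named genes are not reported here.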

Additional observations from a re-analysis of the deposited data

Results flagged for a closer look

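ORC_197 had 8538 normalized counts of SERPINB1 in healthy PBMC, apart from the other 8 healthy samples, of which the nearest had 6127. The gap was 0.612 of the group's range. Of 21 member and group combinations examined for a library apart this was the only one, and chance flags about 1 in 20.

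The OA effect on TIMP1 in fluid exceeded that in PBMC by 1.67 on the log2 scale (limma adjusted p = 0.0257, for the difference itself).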

How the results depend on the processing

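Members called higher in fluid numbered 2, but 4 (TIMP1, TIMP2, TIMP3 and RECK) with array weights or DESeq2. Over all fluid genes DESeq2 also called more, 2509 higher and 2163 lower, against 2006 and 1893 with limma. Members called higher numbered 1 with the fibroblast list as a covariate, 0 with the T cell list, and 1 to 4 without single fluids. None was called lower under any setting. In PBMC the 0 became 1 with values rescaled to equal totals (SERPINB1), 3 with array weights, 2 with DESeq2 and 0 to 2 without single libraries. The 1 difference between tissues (TIMP1) became 0 without horse OA_3850 or OA_9350 (range 0 to 1), and the replicate block changed no member's call. Fluid pairs called were 1 to 3 higher and 0 to 1 lower without single libraries. The cause of these changes was not tested.

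Reversed log2 changes in fluid were, for CST3, -0.0191 with equal totals, -0.22 with array weights, -0.0453 with edgeR and -0.0285 with the fibroblast list, where A2M had -0.67 and TIMP3 -0.56. With the T cell list they were TIMP2 -0.35, RECK -0.25, SERPINB1 -0.25, CST3 -0.86, A2M -1.14, SERPINB6 0.0547, CST7 0.40, ADAM9 -0.48, GZMM 0.14, GZMK 0.0443, GZMA 0.0153 and LRP1 -0.0715. For the difference between tissues, SERPINB1 reversed to -0.0299 with the replicate block and -0.21 with equal totals, and A2M to 0.21 with a pseudocount of 10. That pseudocount also gave 0.64 for TIMP3 minus ADAMTS4 in fluid and -0.61 for A2M minus LRP1 in PBMC.

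Without single libraries or horses, estimates near 0 also reversed. The ranges were -2.69 to 0.0306 for A2M minus LRP1 in fluid, -0.15 to 0.31 for CST3 minus CTSK in PBMC, -0.14 to 0.0762 for CST3 minus CTSS in PBMC, -0.38 to 0.15 for CST3 minus CTSS in fluid, -0.0851 to 0.20 for RECK minus ADAM10 in PBMC, -0.18 to 0.25 for TIMP1 minus ADAM10 in PBMC, -0.20 to 0.97 for TIMP1 minus MMP9 in fluid, -1.35 to 0.11 for TIMP3 minus ADAMTS4 in fluid, -0.0343 to 0.42 for the tissue difference of RECK, -0.11 to 0.0843 for the tissue difference of SERPINB1, -0.15 to 1.96 for A2M in fluid and -0.0634 to 0.39 for CST3 in fluid.

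DESeq2 called 935 genes higher and 750 lower in PBMC, against 418 and 288 with limma. With values rescaled to equal totals 32.2% of the fluid calls were higher, and 44.0% with TMM, against 51.4% with the authors' scaling; the median log2 change of all genes was then -0.12 and 0.01, against 0.08. TIMP1 stayed called under each scaling. Without PBMC sample OA_1038 or OA_9350, A2M in PBMC fell below the filter and could not be fitted. Depth limits A2M and TIMP3 in PBMC, at 0 to 41 and 0 to 21 reads per library.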
